A study of Mus musculus with 12 samples.

Results

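Primary mouse hepatocytes infected with an adenovirus for mouse Cebpa (labelled Ad-m-Cebpa, OE) were compared with others infected with a control adenovirus for green fluorescent protein (labelled Ad-GFP, GFP). The comparison rested on 6 of the 12 RNA-Seq libraries of the study, 3 GFP and 3 OE, selected by their titles and not by their values. The other 6 libraries came from hepatocytes of Cebpa fl/fl mice (WT) and from hepatocytes in which Cre recombinase driven by the albumin promoter had deleted Cebpa (CebpaΔAlb, KO), and they are used only where the effect of added Cebpa is set beside that of its deletion. All cells in GFP and OE carried an adenovirus, and no uninfected culture was among the 6 libraries. The labels do not give the strain, sex, age or genotype of the mice that supplied the GFP and OE cells, nor how long the virus was present. The paper states that only male mice were used, and its other Ad-GFP and Ad-CEBPA assays used wild-type hepatocytes. It does not state that the sequenced cells came from the same preparations. They number the libraries as biological replicates without stating if each came from its own mouse or culture, and the p-values below could reflect only how much preparations vary.

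CEBPA is a basic leucine zipper transcription factor that binds DNA as a dimer, either with itself or with related C/EBP proteins. It is abundant in adult hepatocytes, where it is known for driving plasma protein, gluconeogenic, urea cycle and lipid genes and for restraining proliferation. The same factor also acts outside the liver, in the granulocyte lineage, in fat cells and in the upper epidermis.

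The total expected count per library was 20467466 to 22132226 in GFP and 20160081 to 23193817 in OE. More genes had counts in OE, 20718 to 20860 against 19276 to 19573, and the 10 highest genes held less of each library in OE, 5.07% to 5.18% against 7.24% to 8.03% in GFP. Mitochondrially encoded genes took 0.875% to 1.03% of counts in OE and 1.58% to 1.76% in GFP. The libraries of a group correlated at 0.997 or more (Pearson's r across genes, on log2 CPM), and libraries of different groups at 0.865 to 0.870. CPM is the count relative to a library size scaled with TMM. A level given as from one value to another is the mean of 3 GFP libraries and then the mean of 3 OE libraries. TPM is scaled for gene length and is used where levels of different genes are compared. In bulk RNA, fewer cells of a type and less RNA per cell cannot be told apart.

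Cebpa (ENSMUSG00000034957.10, mm10 chromosome 7, 35119293 to 35121928, plus strand) was measured at 47.95, 50.6 and 54.3 CPM in GFP and 13292, 13652 and 14079 CPM in OE. The groups were far apart, and the spread within each was small. The log2 fold change was 8.07 ± 0.056 (adjusted p = 5.09e-19, edgeR's quasi-likelihood test, Benjamini-Hochberg adjusted across the 14889 tested genes), a 268-fold rise. Reads of the viral transgene and of the endogenous gene are both counted here and cannot be told apart. On the TPM scale Cebpa was at 31.4 ± 2.20 (SD, n = 3) in GFP and 10298 ± 408 in OE. In the other experiment it was at 154 ± 27.7 TPM in WT and 0.257 ± 0.247 TPM in KO, so the GFP cultures lay below the WT hepatocytes and the OE cultures far above them, levels given side by side with no test.

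The response was broad. Of 14889 genes tested, 12893 were called at an adjusted p under 0.05, which is 43.9% of genes higher and 42.7% lower in OE. Over 2-fold, 3499 genes were higher (23.5% of those tested) and 2750 were lower (18.5%), and these are the shares against which the gene groups below should be read. Over 16-fold, 728 genes rose and 185 fell. Libraries of the 2 groups did not overlap at 12956 of the tested genes (87.0%), so a lack of overlap at a named gene is the usual case. For the largest rises, falls, gains and losses it was a condition of being named. The median log2 fold change of all genes was 0.005. With values scaled to gene length (limma on log2(TPM + 1)) the median of all genes was 0.27, with library totals it was 0.15, and the share of calls that were higher was 63.4% and 55.9% against 50.7% with TMM. On the log2(TPM + 1) scale 3430 of 13848 tested genes were over 2-fold higher and 1388 lower. List counts given on that scale should be read against these numbers. Longer genes were more often higher, since the median log2 fold change went from -0.42 in the shortest of 5 equal length classes of tested genes to 0.37 in the longest.

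**Figure D1:**
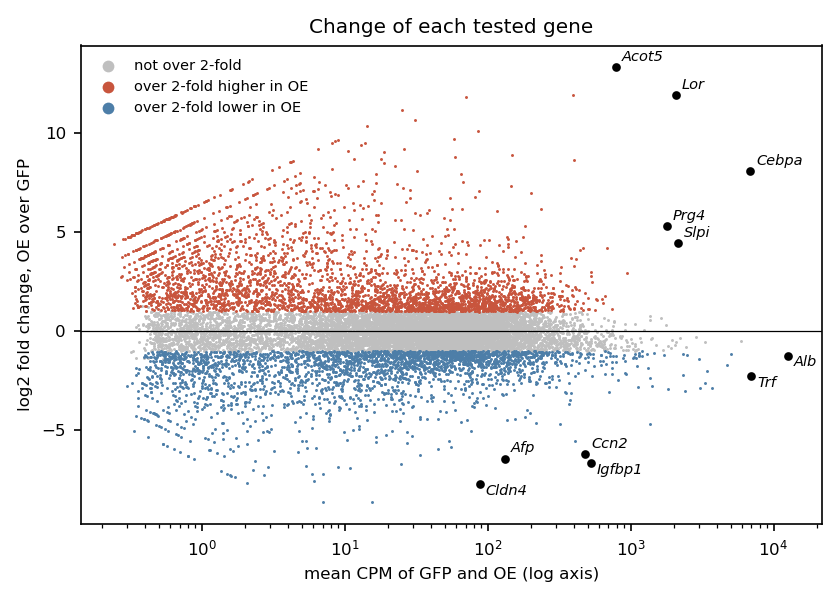
Log2 fold change of each tested gene in OE over GFP (y axis) against its mean CPM in the 2 groups (x axis, log scale), leaving out genes with 0 counts in all 3 libraries of a group. Red points are called and over 2-fold higher (3499 genes in all), blue points over 2-fold lower (2750), and selected genes are named, with Lor, Acot5, Slpi and Prg4 far above zero at high levels and Igfbp1, Ccn2, Afp and Cldn4 far below.

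Genes with no counts in any GFP library were among the largest rises. There were 210 such genes among those tested, 163 of them protein coding, and 27 reached 10 CPM or more in OE, whereas 19 genes had no counts in any OE library and none of these reached 10 CPM in GFP. These genes could pass the filter on low counts only through the group in which they were present, so their number describes the data and supports no direction. A fold against a group at 0 is printed as a minimum, for which the absent group was assigned 3 counts in total, and covers counting error only.

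Several stefin A genes, which encode small inhibitors of cathepsins and lie next to each other on chromosome 16, went from absent to abundant. Stfa1 was at 0 in every GFP library and at 896, 877 and 776 CPM in OE, at least 17239-fold higher. BC100530 was at 0 in GFP and at 405, 393 and 344 CPM in OE, and Stfa3 at 0 in GFP and at 56.95, 53.5 and 47.5 CPM in OE. In all 3, OE libraries lay together and GFP libraries held no count. The provisional gene 2010005H15Rik had a count of 1 in GFP and 55.5, 48.2 and 47.7 CPM in OE, a ratio of 3085 with a 95% counting interval of 553 to 121870. These genes are near-identical copies, so the split of reads among them is uncertain. Other genes of the cluster, named after their values were seen, stayed low in OE. Stfa2 and Csta1 had 3 counts each in OE, BC117090 was at 0.615 CPM and Stfa2l1 at 1.48 CPM. The other 2 tested cystatins, Cstb and Cst3, are expressed in most cells and fell, from 262 to 133 and from 150.5 to 83.4 CPM. Over the whole list of 8 tested of 13, 6 rose over 2-fold, with a median log2 fold change of 7.62 when genes at 0 in GFP were set at their bound. Of the 8 tested, 5 were at 0 in GFP and could pass the filter only through OE, so the count and median support no direction.

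Granule and alarm proteins of neutrophils rose with them. S100a9 and S100a8, the subunits of calprotectin, were at 0 in GFP and at 381, 380.3 and 324 CPM and 239, 231 and 201 CPM in OE, at least 7341-fold and 4542-fold higher. Ngp, a neutrophilic granule protein, went from 0 to 26.2, 23.2 and 27.1 CPM, and Mmp8, the neutrophil collagenase, from 0 to 10.6, 9.39 and 9.02 CPM. Retnla, a secreted resistin-like protein of alternatively activated macrophages, went from 0 to 117, 110.2 and 99.2 CPM. Crisp1 and Crisp3, neighbouring cysteine-rich secretory protein genes, went from 0 to 88.8, 80.3 and 85.9 CPM and to 68.3, 60.2 and 67.8 CPM, and the schlafen gene Slfn1 from 0 to 32.8, 32.9 and 30.9 CPM. The groups did not overlap for any of these genes. Lactotransferrin, Ltf, rose from 0.346 to 9.28 CPM, Trem1 from 0.101 to 4.12 CPM and the zinc finger repressor Gfi1 from 0.0514 to 4.26 CPM, 3 genes chosen after their values were seen. Of 17 tested members of the list of neutrophil and myeloid genes, 10 rose and 4 fell over 2-fold, with a median of 3.24 (8 and 2 of 13 on the log2(TPM + 1) scale). Of the 17 tested, 4 had no counts in 1 of the groups. Members at or near 0 in GFP could pass the filter only through OE, so this count and median support no direction.

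Most leukocyte genes that define the cells themselves were near 0 in both groups. Over the 3 libraries of each group, Ptprc (CD45) had 7 counts in GFP and 0 in OE, Itgam 2 and 9, Ly6g 0 and 0, Csf3r 0 and 1, Elane 0 and 3, and Mpo and Ctsg none. Lyz2 had 18 and 22 counts and Adgre1 (F4/80) 0 and 9. Others were higher in OE. Csf1r, the macrophage growth factor receptor, had 18 and 80 counts and rose 3.94-fold to 1.19 CPM, Prtn3, a neutrophil granule protease, had 7 and 77 counts and rose 9.42-fold, and Cd14, a lipopolysaccharide co-receptor that hepatocytes also express, rose from 46.9 to 75.7 CPM. Cebpe, the C/EBP protein of late granulocyte maturation, fell from 2.09 to 0.233 CPM, and Padi4 from 1.295 to 0.0881 CPM. Of the 30 listed genes, Mpo, Ctsg, Fcnb and Ms4a3 were at 0 in all 6 libraries, and the list summed to 228 to 246 CPM in GFP and 789.8 to 903 CPM in OE, most of the latter from S100a9 and S100a8. The part of such cells in these results was not tested.

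**Figure D2:**
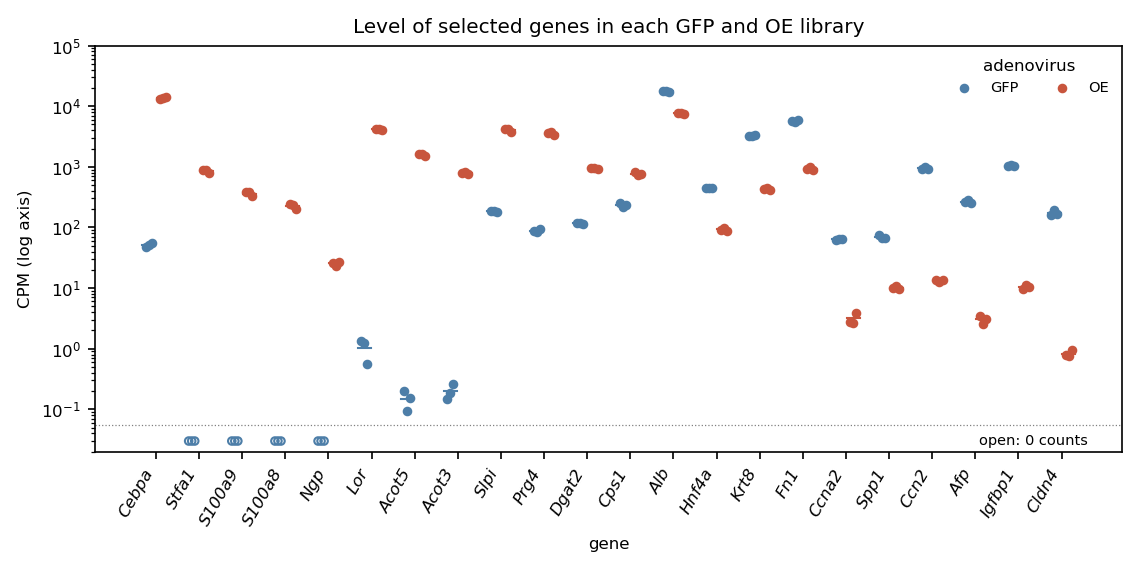
Level of 22 selected genes (x axis) in each library, in CPM on a log axis, with GFP in blue, OE in red, the group mean as a bar, and open points for libraries with 0 counts. No gene shown has overlapping groups, as was so for 87.0% of all tested genes. Stfa1, S100a9, S100a8 and Ngp have no counts in any GFP library.

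Another group of near-silent genes lies in the epidermal differentiation complex on chromosome 3, whose genes build the cornified envelope of skin. Loricrin, Lor, its main structural protein, was at 1.34, 1.22 and 0.565 CPM in GFP and 4149, 4268 and 4059.6 CPM in OE. The rise was 3935-fold (log2 fold change 11.94 ± 0.10, adjusted p = 1.37e-18), and in OE the gene reached 4776 TPM, against 7532 TPM for albumin. Sprr1b, a small proline-rich envelope protein, rose from 0.132 to 116 CPM. The late envelope genes Lce3d, Lce3e and Lce3f went from 0 to 11.9, 11.9 and 13.02 CPM, to 16.6, 16.98 and 15.9 CPM and to 36.9, 38.9 and 33.3 CPM. Outside the complex, Tgm3, the transglutaminase that cross-links the envelope, rose 586-fold, and Elovl4 and Elovl3, which make very long chain fatty acids, rose 485-fold and 438-fold. Annexin A1, Anxa1, went from 1.04, 1.88 and 1.39 to 170.3, 153 and 162 CPM and connexin 43, Gja1, from 1.54, 1.97 and 1.85 to 132, 134 and 126 CPM. Sprr1b, Tgm3, Lce3d, Lce3e, Elovl4 and Elovl3 were named after their values were seen.

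Not all genes of the region moved up. A window was chosen after the values were seen, and its tested genes span 90560578 to 93564643 on chromosome 3 (mm10). In it, 62 of 120 annotated genes had no counts in any of the 6 libraries, and 30 were tested. Of these, 18 rose and 8 fell over 2-fold, beside 23.5% and 18.5% of all tested genes. Many were at or near 0 in 1 group and could pass the filter only through the other, so these counts support no direction. S100a6, a calcium-binding protein, fell from 211 to 14.4 CPM, and Sprr1a, the neighbour of Sprr1b, fell from 222 to 60.2 CPM. Most keratinocyte identity genes were near 0 in OE. Involucrin, Ivl, an envelope precursor, rose from 1 count in GFP to 97 in OE (1.42 CPM), a ratio of 87.1 with a counting interval of 15.3 to 3477. Krt14 had no counts in either group, Krt5 fell from 3.08 to 0.0463 CPM (188 counts in GFP and 3 in OE), Krt10 fell from 2.16 to 0.621 CPM, Krt1 had 16 counts in OE, Trp63 had 21 and filaggrin, Flg, had 25, with none of the last 3 in GFP.

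The third cluster holds acyl-CoA thioesterases, which release fatty acids from coenzyme A. Acot5, a peroxisomal member, was at 0.199, 0.09399 and 0.154 CPM in GFP and 1604, 1602 and 1523 CPM in OE, a 10255-fold rise (log2 fold change 13.32 ± 0.081, adjusted p = 2.53e-19). Its neighbour Acot3 was at 0.149, 0.188 and 0.257 CPM in GFP and 795, 823 and 759 CPM in OE, a 3905-fold rise. Other members of the cluster moved less. Acot2 rose 6.03-fold, Acot1 4.59-fold and Acot4 2.01-fold, and Acot6 rose from 6.52 to 7.89 CPM with a log2 fold change of 0.28 ± 0.11 (adjusted p = 0.0360). The copies are close in sequence, so the division of reads among them is uncertain.

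**Figure D3:**
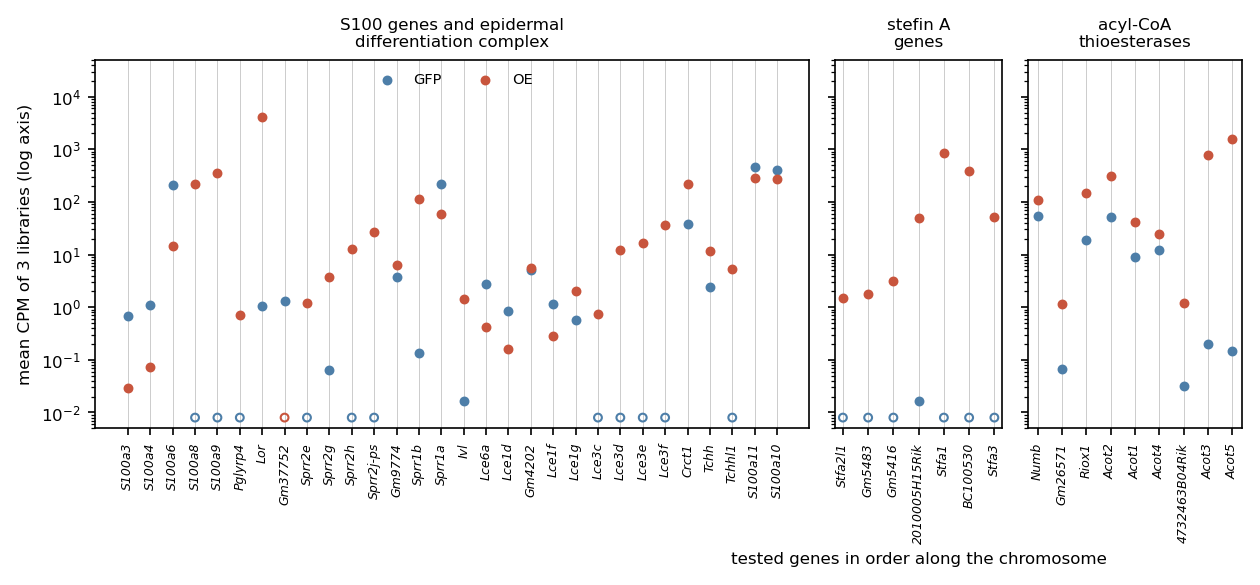
Mean CPM of 3 libraries (y axis, log scale) for the tested genes of 3 chromosome windows in chromosomal order (x axis), GFP in blue and OE in red, with open points for groups with 0 counts. Neighbours differ, with Lor, S100a8 and S100a9 high in OE, S100a6 and Sprr1a lower in OE, and the rises of Acot5 and Acot3 above those of the adjoining thioesterases. All 7 tested genes of the stefin A window are higher in OE. They had no or almost no counts in GFP and could pass the filter only through OE, so this supports no direction. Genes of the window too low to be tested are not shown.

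Promoter sequences were examined for the letters of a C/EBP site because these genes went from near silence to high levels. The sequences are from RefSeq (GRCm38.p6), run 5′ to 3′ on the gene's strand from 250 bases before to 50 bases after the annotated start, and capitals mark matches to TTGCNNAA on either strand. Stfa1 lies at chr16:36276898-36277197 (plus strand), S100a9 at chr3:90695672-90695971 (minus), Ngp at chr9:110419558-110419857 (plus), Retnla at chr16:48842359-48842658 (plus), Crisp1 at chr17:40319158-40319457 (minus) and Crisp3 at chr17:40242239-40242538 (minus). Afp at chr5:90490464-90490763 (plus) and Alb at chr5:90460620-90460919 (plus) are shown with them as genes that fell.
Stfa1: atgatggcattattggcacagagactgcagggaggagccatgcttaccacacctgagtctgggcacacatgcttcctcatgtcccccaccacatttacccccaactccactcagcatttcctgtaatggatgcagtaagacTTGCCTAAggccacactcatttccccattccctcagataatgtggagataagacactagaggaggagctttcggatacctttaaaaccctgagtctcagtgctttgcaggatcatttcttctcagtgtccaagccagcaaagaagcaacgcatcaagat
S100a9: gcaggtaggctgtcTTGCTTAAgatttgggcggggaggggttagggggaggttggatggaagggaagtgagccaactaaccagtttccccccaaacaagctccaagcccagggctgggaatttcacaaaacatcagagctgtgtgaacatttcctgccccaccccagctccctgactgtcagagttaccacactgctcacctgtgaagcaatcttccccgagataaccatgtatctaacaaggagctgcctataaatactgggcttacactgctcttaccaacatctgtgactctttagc
Ngp: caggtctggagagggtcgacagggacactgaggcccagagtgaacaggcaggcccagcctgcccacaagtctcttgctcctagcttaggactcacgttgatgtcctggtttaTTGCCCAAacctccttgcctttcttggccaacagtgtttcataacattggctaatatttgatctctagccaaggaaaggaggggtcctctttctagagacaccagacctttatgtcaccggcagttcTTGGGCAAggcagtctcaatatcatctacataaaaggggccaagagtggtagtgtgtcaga
Retnla: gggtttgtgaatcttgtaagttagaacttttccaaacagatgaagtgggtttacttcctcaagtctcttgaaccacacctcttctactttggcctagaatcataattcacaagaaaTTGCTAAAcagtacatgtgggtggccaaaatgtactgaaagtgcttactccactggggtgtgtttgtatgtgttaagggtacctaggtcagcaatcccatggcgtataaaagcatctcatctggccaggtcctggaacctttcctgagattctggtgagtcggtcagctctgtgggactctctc
Crisp1: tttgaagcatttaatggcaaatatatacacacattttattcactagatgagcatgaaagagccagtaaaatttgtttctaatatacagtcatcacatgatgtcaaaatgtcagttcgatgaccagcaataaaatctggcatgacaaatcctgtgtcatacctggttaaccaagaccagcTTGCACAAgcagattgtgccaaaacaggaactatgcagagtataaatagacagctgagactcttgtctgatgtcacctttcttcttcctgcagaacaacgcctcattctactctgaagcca
Crisp3: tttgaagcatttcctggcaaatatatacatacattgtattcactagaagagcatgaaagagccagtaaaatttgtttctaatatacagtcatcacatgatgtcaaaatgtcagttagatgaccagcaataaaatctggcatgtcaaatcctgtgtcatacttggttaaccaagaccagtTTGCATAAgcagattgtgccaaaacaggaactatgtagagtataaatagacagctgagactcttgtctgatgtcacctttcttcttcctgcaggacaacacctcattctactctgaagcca
Afp: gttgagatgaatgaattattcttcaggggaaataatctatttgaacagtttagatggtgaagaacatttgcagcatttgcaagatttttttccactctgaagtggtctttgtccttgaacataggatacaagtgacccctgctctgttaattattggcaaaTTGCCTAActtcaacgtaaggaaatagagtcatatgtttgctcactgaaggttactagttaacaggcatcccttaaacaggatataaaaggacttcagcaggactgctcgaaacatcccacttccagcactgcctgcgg
Alb: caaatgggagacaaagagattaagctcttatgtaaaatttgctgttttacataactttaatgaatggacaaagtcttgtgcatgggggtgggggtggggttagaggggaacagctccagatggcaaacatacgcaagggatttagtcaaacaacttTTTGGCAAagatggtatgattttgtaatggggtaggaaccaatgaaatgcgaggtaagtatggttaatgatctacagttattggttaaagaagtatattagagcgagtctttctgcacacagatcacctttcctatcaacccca

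The 2 Crisp promoters were identical at 287 of 300 bases, and each held its match 71 bases before the start. Of the 12 largest rises, 11 had a promoter in the table and 7 of these held the letters, against 1 of 11 for the 12 largest falls. For the 10 largest gains and the 10 largest losses in CPM the numbers were 3 of 6 and 3 of 7. Over all genes, the letters were found in 14.9% of 497 promoters of genes over 16-fold higher, in 9.73% of 2508 over 2-fold higher, in 8.25% of 1999 over 2-fold lower, in 11.7% of 128 over 16-fold lower and in 8.58% of 10959 tested genes. In the whole table of 32851 promoters of this length the share was 10.8%. Base composition moved with these shares, the median GC content being 54.7% for the genes over 16-fold higher, 52.7% for those over 16-fold lower and 60.7% for all tested genes, and its part in the difference was not tested. The stricter palindrome TTGCGCAA, which lies within TTGCNNAA, was found in 0.604% of promoters of genes over 16-fold higher, 0.781% over 16-fold lower (1 promoter) and 0.301% of all tested genes. A match is a run of letters and not a measured binding site, and Stfa3, Lor, Acot5, Acot3 and S100a8 had none in this window. For Stfa1 the RefSeq start lies 197 bases from the start of the annotation used for the counts, and for S100a8 93 bases. For Slpi, whose sequence held a match, the distance was 32588 bases, and for Sdc4 it was 699. The sequences of Slpi and Sdc4 thus do not cover the annotated start used for their counts.

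Large gains in CPM were also seen at other genes, some already expressed in GFP and some near silent there. Slpi, a secreted inhibitor of neutrophil elastase, was at 189.9, 185 and 178 CPM in GFP and 4148, 4275 and 3799.6 CPM in OE, 22.1-fold higher, and at 10849 TPM in OE it stood above albumin. Prg4, the lubricant proteoglycan 4, was at 86.02, 84.5 and 93.1 CPM in GFP and 3541, 3682 and 3297 CPM in OE, 39.9-fold higher. Both groups were tight, with no overlap. Sdc4, the heparan sulphate proteoglycan syndecan 4, rose 7.72-fold from 217 ± 5.100 to 1675 ± 23.4 CPM (SD, n = 3). Ero1l, an oxidase of the endoplasmic reticulum, rose 18.8-fold from 69.6 to 1306 CPM and Arhgef6, a guanine nucleotide exchange factor, 396-fold from 2.03 to 803 CPM. Serpinb2, an inhibitor of plasminogen activators, had 2 counts in GFP and reached 152, 134 and 134 CPM in OE, a ratio of 4273 with a counting interval of 1183 to 35292. Vcan, Fstl1 and Runx2, a proteoglycan, a secreted glycoprotein and the bone transcription factor, rose 72.4-fold, 159-fold and 107-fold, and these and Serpinb2 were named after their values were seen.

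Cebpa's own family and partners moved unevenly. Trib1, a pseudokinase that directs CEBPA to the proteasome, was at 48.2, 47.1 and 48.3 CPM in GFP and 884, 878 and 875 CPM in OE, with no overlap, a log2 fold change of 4.20 ± 0.032 and an adjusted p of 7.77e-19. Nfil3, a repressor of the PAR leucine zipper branch, rose 12.5-fold from 61.4 to 769 CPM, and Hlf, an activator of that branch, rose 8.63-fold from 5.16 to 44.5 CPM. The sister genes Cebpb and Cebpd fell, from 99.1 to 41.7 and from 18.8 to 10.5 CPM, and Cebpg rose from 107 to 133 CPM. Of the 12 genes, 5 rose over 2-fold, Cebpa among them, and 3 fell.

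Among liver transcription factors, Hnf4a, the nuclear receptor at the centre of the hepatocyte network, was at 447, 448 and 450.5 CPM in GFP and 92.2, 96.95 and 88.01 CPM in OE, 4.86-fold lower (log2 fold change -2.28 ± 0.035, adjusted p = 2.86e-16). Creb3l3, a membrane-bound factor of lipid and acute phase genes, fell from 180.4 to 13.8 CPM. Gata4 and Prox1, which act in liver development, rose from 24.05 to 119 and from 75.4 to 226 CPM, and Foxa1 rose from 42.2 to 75.2 CPM. The 18 factors thus split, with 4 over 2-fold higher and 5 over 2-fold lower. Of 15 tested metabolic nuclear receptors 6 were over 2-fold higher and 2 lower. Nr1d1 (REV-ERBα) rose from 5.702 to 19.6 CPM and the glucocorticoid receptor Nr3c1 from 96.8 to 237 CPM, and the bile acid receptor Nr1h4 (FXR) fell from 51.7 to 19.6 CPM.

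Plasma carrier proteins and apolipoproteins fell together. Albumin, Alb, was at 18102, 17935 and 17263 CPM in GFP and 7787, 7651 and 7388 CPM in OE, 2.34-fold lower. Transferrin, Trf, was at 11774, 11445 and 11427 CPM in GFP and 2482, 2533 and 2295 CPM in OE, and selenoprotein P, Selenop, at 6594, 6543 and 6416 CPM in GFP and 926, 903 and 876 CPM in OE. Each gene's OE libraries lay below all of its GFP libraries. Fetuin-A, Ahsg, fell 8.07-fold from 4291 ± 69.2 to 532 ± 12.5 CPM, hemopexin, Hpx, 3.298-fold and the vitamin D carrier Gc 3.98-fold. Of 28 genes, 16 fell over 2-fold and none rose over 2-fold, with a median log2 fold change of -1.14 beside 0.005 for all genes. On the log2(TPM + 1) scale, 10 were over 2-fold lower. The list summed to 71337 to 73242 CPM in GFP and 24307 to 25655 CPM in OE.

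Coagulation genes fell on the whole, but the fibrinogen chains did not. Klkb1, which encodes plasma kallikrein, fell from 13.8 to 1.303 CPM, the plasminogen activator Plat from 15.2 to 1.52 CPM and protein Z, Proz, from 26.2 to 2.81 CPM. Fgb, the fibrinogen beta chain, rose from 504 ± 33.2 to 790.4 ± 22.3 CPM (log2 fold change 0.65 ± 0.043), and Fga and Fgg rose from 233 to 354 and from 177 to 313 CPM. Of 28 genes, 13 fell and 0 rose over 2-fold (11 and 2 on the log2(TPM + 1) scale). Complement was divided, with 7 of 21 over 2-fold lower and 2 over 2-fold higher (on the log2(TPM + 1) scale 5 were higher and 5 lower of 20). The lectin Mbl2 fell 7.72-fold from 271 to 35.1 CPM and C4b 4.23-fold, whereas C3, the most abundant, rose from 1252 to 2030.3 CPM.

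The acute phase list had no shared direction, with 5 over 2-fold higher and 7 lower of 23, and a median of -0.39 that lay at -0.38 to 0.18 under other scalings. Crp fell from 134 to 13.3 CPM and ceruloplasmin, Cp, from 2296 to 446 CPM, while serum amyloid P, Apcs, rose from 19.7 to 121 CPM. Haptoglobin, Hp, fell 2.28-fold from 3429 to 1506 CPM. Iron handling fell, 9 of 16 over 2-fold lower and 2 higher (5 and 2 of 17 on the log2(TPM + 1) scale), with Tmprss6, the protease that restrains hepcidin, 6.28-fold lower and ferritin light chain, Ftl1, 4.58-fold lower. Hepcidin itself, Hamp, was low at 0.543 CPM in GFP and 0.409 CPM in OE (adjusted p = 0.323). The iron exporter Slc40a1 rose from 151 to 513 CPM. Major urinary proteins, whose copies share reads, were lower in 14 of 19 and over 2-fold lower in 5, but over 2-fold lower in 1 on the log2(TPM + 1) scale, with Mup20 falling 2.61-fold from 4328 to 1660.5 CPM.

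In the urea cycle the first enzyme rose and 3 later enzymes fell over 2-fold. Cps1, carbamoyl phosphate synthetase, was at 252, 217 and 236 CPM in GFP and 817, 735 and 748 CPM in OE (log2 fold change 1.71 ± 0.052, adjusted p = 2.99e-13). Otc fell from 9.04 to 1.66 CPM, Ass1 from 348 to 91.6 CPM and Arg1 from 85.7 to 30.9 CPM, and of the 9 listed genes 1 rose and 3 fell over 2-fold. Amino acid breakdown was similarly split, with 10 of 32 over 2-fold higher and 11 lower. Hal, the first enzyme of histidine breakdown, went from 2.83, 3.95 and 3.39 to 232, 234 and 222 CPM, 67.3-fold. It is also an enzyme of the upper epidermis. Hgd, of tyrosine breakdown, rose 15.7-fold, while Kmo, of tryptophan breakdown, fell 8.44-fold and Ftcd, which takes up the histidine pathway downstream of Hal, fell 7.31-fold.

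Several hepatocyte genes of sugar metabolism fell. The glucose transporter Slc2a2 fell from 46.8 to 8.86 CPM, liver glycogen synthase Gys2 from 26.9 to 5.48 CPM and the glucagon receptor Gcgr from 50.4 to 15.4 CPM. The aldolase Aldoc and the lactate exporter Slc16a3 rose, from 4.39 to 24.2 and from 24.3 to 191 CPM. The glycogen targeting subunit Ppp1r3b rose 6.25-fold and Ugp2, which makes UDP-glucose, 2.94-fold. The gluconeogenic enzymes usually linked to CEBPA were low in both groups, G6pc at 0.996 CPM in GFP and 0.625 CPM in OE (adjusted p = 0.0609) and Pck1 at 2.05 CPM in GFP and 4.21 CPM in OE. By counts over 2-fold, gluconeogenesis and glycogen had 5 higher and 6 lower of 18, and glycolysis 3 and 3 of 22 (6 and 3 on the log2(TPM + 1) scale), and the medians of both lists were negative with TMM and positive with TPM.

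Lists of lipid burning and of lipid synthesis and storage both held more genes lower than higher, with some large rises. The carnitine palmitoyltransferase Cpt1a fell from 172 to 49.8 CPM. Fatty acid oxidation and ketogenesis had 15 of 31 over 2-fold lower and 5 higher, 4 of the latter being thioesterases and the fifth Cyp4a14, and on the log2(TPM + 1) scale 8 were lower and 5 higher. Dgat2, which makes triglyceride, was at 119, 120.2 and 112 CPM in GFP and 961, 942 and 932 CPM in OE, 8.06-fold higher. Acetyl-CoA carboxylase, Acaca, rose from 68.5 to 404 CPM and the fatty acid receptor Cd36 from 42.5 to 259 CPM, whereas the droplet proteins Plin4, Cidec and Plin2 fell, from 53.00 to 1.05, from 17.4 to 1.700 and from 765 to 197 CPM. Lipogenesis and droplet genes were thus 6 over 2-fold higher and 13 lower of 31.

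Cholesterol genes were more often higher than lower. Idi1, an isomerase of cholesterol synthesis, was at 179.8, 169.9 and 184 CPM in GFP and 619.6, 594 and 614 CPM in OE, 3.42-fold higher with no overlap. The exporter Abca1 rose 3.81-fold, and Soat2, which esterifies cholesterol, fell 5.28-fold. In all, 9 of 30 were over 2-fold higher and 1 lower, with a median of 0.34. Bile acid synthesis had 1 over 2-fold higher and 5 lower of 13, and 2 of 12 were lower on the log2(TPM + 1) scale. Baat, which conjugates bile acids, was 9.98-fold lower and Cyp2c70 5.96-fold lower. Hepatocyte transporters had 3 over 2-fold higher and 4 lower of 17, Abcc6 falling from 23.9 to 1.898 CPM and Abcb1a rising from 19.1 to 144 CPM.

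Detoxification genes fell. Cyp3a11, the main drug-oxidising P450 of mouse liver, was at 668, 603 and 637 CPM in GFP and 76.97, 65.6 and 75.7 CPM in OE, and Cyp2b10 at 642, 597 and 611 CPM in GFP and 81.1, 73.2 and 70.5 CPM in OE. Both were over 8-fold lower with no overlap. Cyp3a13 rose 4.82-fold from 52.9 to 255 CPM. Of 29 tested P450 genes, 15 fell and 3 rose over 2-fold (8 and 3 of 27 on the log2(TPM + 1) scale). In phase II conjugation 19 of 37 fell and 2 rose over 2-fold. The glutathione transferases Gsta3 and Gstm3 fell 17.6-fold and 11.6-fold, and Mgst1, the most abundant, rose from 624 to 901 CPM. Targets of the oxidant sensor NRF2 and the metallothioneins fell over 2-fold in 9 of 16, with a median of -1.28. Gclc, which limits glutathione synthesis, fell 3.35-fold from 1701 to 507 CPM and Mt1 5.69-fold from 332 to 58.4 CPM, and glucose-6-phosphate dehydrogenase, G6pdx, rose 5.16-fold.

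Zonal markers separated. Pericentral genes, many of them Wnt targets, were over 2-fold higher in 11 of 20 and lower in 3, with a median of 1.07. Axin2, a feedback target of Wnt signalling, was at 1.04, 0.658 and 0.822 CPM in GFP and 14.2, 13.8 and 15.8 CPM in OE, Tbx3 rose 7.59-fold and Oat from 9.102 to 58.9 CPM, while Lect2 fell 7.03-fold. Cyp2e1, a defining pericentral gene, fell from 17.6 to 13.8 CPM. Periportal genes were over 2-fold higher in 5 and over 2-fold lower in 8 of 18. Hsd17b13, a lipid droplet enzyme, was 6.04-fold lower, and Hal and Cps1 were higher as above.

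Epithelial keratins, claudins and the contractile cytoskeleton fell. Cldn4, a tight junction claudin, was at 163, 193 and 169 CPM in GFP and 0.784, 0.764 and 0.9398 CPM in OE, 210.4-fold lower (log2 fold change -7.72 ± 0.11, adjusted p = 1.26e-16). Krt8, one of the hepatocyte keratin pair, was at 3225, 3206 and 3310.5 CPM in GFP and 438, 451 and 407 CPM in OE, and its partner Krt18 fell from 1979.6 to 286 CPM. Galectin 1, Lgals1, fell 25.9-fold from 619 to 23.9 CPM. Of 41 genes, 19 fell and 5 rose over 2-fold, Gja1, Gjb2 and Anxa1 among the latter. Myo5c, Acta1 and Vil1, a myosin, skeletal actin and the microvillus protein villin, were among the 12 largest falls at 75.1-fold, 56.5-fold and 47.3-fold.

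Matrix genes fell with them. Fibronectin, Fn1, was at 5778, 5449 and 5970 CPM in GFP and 909.9, 1006 and 879 CPM in OE, 6.15-fold lower, and the basement membrane collagens Col4a1 and Col4a2 fell 5.79-fold and 7.64-fold. The collagenase inhibitor Timp3 rose 20.2-fold from 11.2 to 227 CPM. Of 26 tested of 31, 14 fell and 6 rose over 2-fold. Tgfb1, the main fibrogenic cytokine, fell from 90.3 to 21.9 CPM, while Col1a1 was at 0.7198 CPM in GFP and 0.7495 CPM in OE (adjusted p = 0.881). Ccn2, a matricellular target of TGF-beta and YAP, was at 926, 989 and 928 CPM in GFP and 13.5, 12.7 and 13.4 CPM in OE, 71.8-fold lower with no overlap. Other YAP targets did not share that size, with 4 of 24 over 2-fold higher and 7 lower, a balance that turned to 9 and 5 of 22 on the log2(TPM + 1) scale and was 2 and 8 with the gene length trend removed. Ccn1 fell from 221 to 173 CPM and Yap1 itself rose from 189 to 366 CPM. Integrins and matrix receptors had 3 over 2-fold higher and 6 lower of 16 (1 and 1 of 13 on the log2(TPM + 1) scale). Sdc4 had the highest level in OE.

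Fetal liver and bile duct genes were mixed. Alpha-fetoprotein, Afp, was at 259.6, 278 and 249 CPM in GFP and 3.43, 2.56 and 3.101 CPM in OE, 86.1-fold lower, and the oncofetal chromatin protein Hmga2 fell 11.1-fold from 27.3 to 2.46 CPM. Lin28b rose from 0.342 to 5.902 CPM and Igf2 from 7.14 to 16.96 CPM. The fetal list was split at 6 over 2-fold higher and 6 over 2-fold lower of 13. Of 20 bile duct and progenitor genes, 4 rose and 9 fell over 2-fold. Cdh6 fell from 5.41 ± 0.387 to 0.0313 ± 0.0543 CPM, and Cd24a, the most abundant, rose from 199 to 756 CPM. The median of this list was -0.48 with TMM and 0.13 on the log2(TPM + 1) scale, where 4 of 15 were lower.

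The genes that the study singled out moved as follows. Spp1, which encodes osteopontin, was at 74.1, 66.97 and 67.3 CPM in GFP and 9.95, 10.6 and 9.82 CPM in OE. The 2 groups did not overlap and the log2 fold change was -2.78 ± 0.062 (adjusted p = 1.10e-14), 6.85-fold lower in OE. Sox9, a biliary transcription factor, was at 11.2, 12.97 and 11.5 CPM in GFP and 13.7, 15.8 and 17.6 CPM in OE, with a small rise (log2 fold change 0.40 ± 0.10, adjusted p = 0.00144). Hes1, a Notch target, rose 1.56-fold, the stress factor Atf3 3.51-fold and Smpdl3b, a sphingomyelinase-like enzyme, 1.66-fold. Within the 300 bases taken around the RefSeq start of Spp1 there was no match to TTGCNNAA. The paper reports that CEBPA acts on Spp1 through a site further upstream, from reporter and chromatin immunoprecipitation assays. The window does not reach that site, so the lack of a match has no bearing on it.

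Every one of the 33 listed genes of DNA replication and mitosis fell, 29 of them over 2-fold, with a median log2 fold change of -2.69. Ccna2, cyclin A2, was at 62.7, 63.8 and 64.3 CPM in GFP and 2.81, 2.696 and 3.95 CPM in OE. The ubiquitin-conjugating enzyme Ube2c fell 27.4-fold from 24.4 to 0.884 CPM, Birc5 (survivin) 20.4-fold and Ccnb2 18.6-fold. The proliferation marker Mki67 fell from 121 to 13.4 CPM. The replication helicase genes Mcm4 and Mcm3 fell under 2-fold, from 106 to 80.4 and from 133 to 79.5 CPM. The list held 28 to 30 genes over 2-fold lower in the other scalings run. Of 22 G1 regulators, 8 fell and 2 rose over 2-fold (3 each on the log2(TPM + 1) scale). Ccnd3 fell 4.43-fold and Cdkn1a, the p21 inhibitor, fell 2.32-fold from 864 to 372 CPM, while the p15 inhibitor Cdkn2b rose 5.73-fold.

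**Figure D4:**
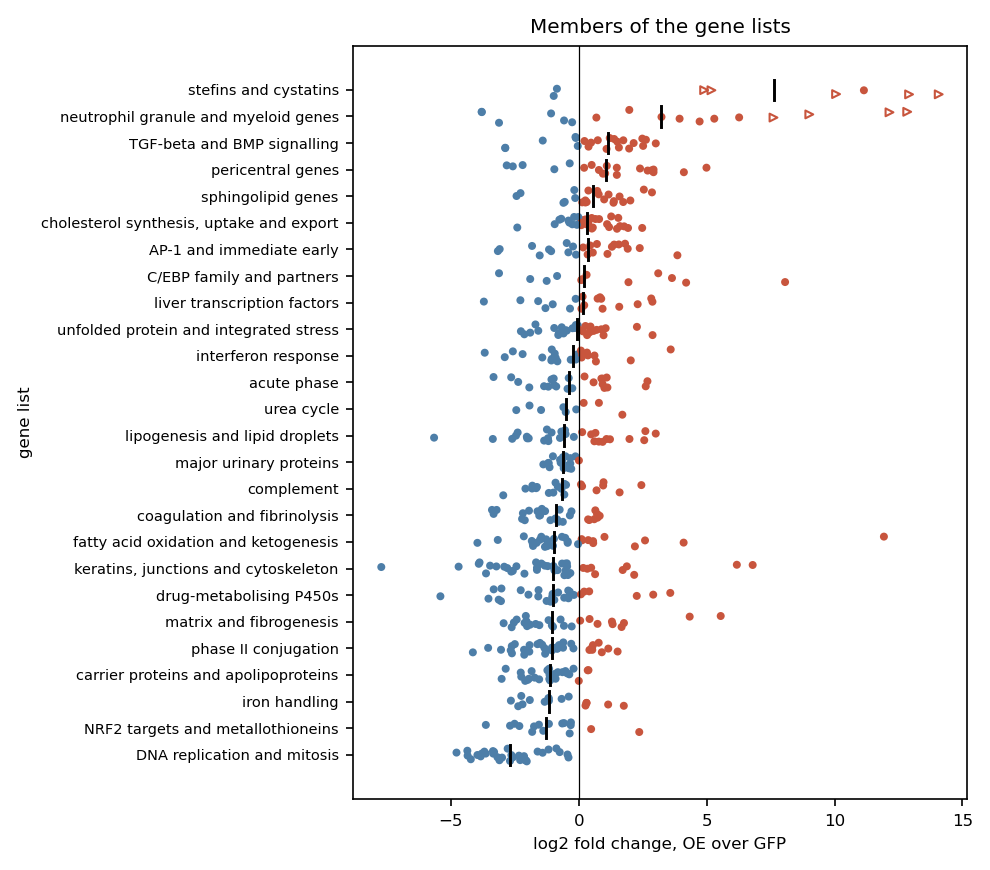
Log2 fold change in OE over GFP (x axis) of the tested members of 26 gene lists (y axis), one point per gene, red above and blue below zero, with the list's median as a black bar and open triangles for genes at 0 counts in GFP, drawn at their lower bound. The median is 7.62 for stefins and cystatins, 3.24 for neutrophil and myeloid genes and -2.69 for DNA replication and mitosis, where no gene lies above zero. The stefin and neutrophil lists hold genes that passed the filter only through OE, so their medians support no direction.

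Immediate early genes and stress genes were divided. Phlda1 rose 14.5-fold from 30.3 to 440.1 CPM and the FGF feedback inhibitor Spry4 5.23-fold. Ier3 and Klf10 fell 8.94-fold and 8.51-fold, in a list with 8 over 2-fold higher and 6 lower of 23. In the unfolded protein and integrated stress list 3 rose and 5 fell over 2-fold of 30, and 6 and 5 on the log2(TPM + 1) scale. Dnajb9, a chaperone partner induced by IRE1, rose 7.397-fold from 59.99 to 444 CPM and Chac1, a glutathione-degrading target of ATF4, 4.84-fold. Atf5 and Herpud1 fell 4.79-fold and 4.36-fold, and the chaperone Hspa5 rose 1.496-fold from 1087 to 1626 CPM.

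Inflammatory genes did not move as a block. The monocyte chemokine Ccl2 was at 149, 146 and 151 CPM in GFP and 5.16, 4.81 and 3.57 CPM in OE, 32.7-fold lower, whereas the neutrophil chemokine Cxcl2 was at 0.199, 0.517 and 0.308 CPM in GFP and 13.04, 15.4 and 12.6 CPM in OE, 39.03-fold higher. Of 19 tested NF-kB targets 6 rose and 5 fell over 2-fold (5 and 2 of 17 on the log2(TPM + 1) scale). Interferon response genes had 2 over 2-fold higher and 8 lower of 26, and 3 and 4 on the log2(TPM + 1) scale. Ifit2 fell 12.8-fold, Rsad2 7.41-fold and Oasl1 5.96-fold, and the guanylate-binding protein Gbp2 rose 12.1-fold from 5.68 to 68.6 CPM. The medians of 8 lists, those of interferon response, amino acid breakdown, gluconeogenesis, glycolysis, bile duct, integrin, unfolded protein and IGF genes, were negative with TMM and positive on the log2(TPM + 1) scale. Those of YAP targets and transporters were positive with TMM and negative with the gene length trend removed.

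Secreted growth factors and their receptors changed in several pathways. Igfbp1, a liver-derived binding protein of insulin-like growth factors, was at 1042, 1071 and 1015 CPM in GFP and 9.82, 11.1 and 10.3 CPM in OE, 100.3-fold lower (log2 fold change -6.65 ± 0.047, adjusted p = 5.09e-19). Igf1 fell from 133 to 20.9 CPM, Igfbp7 21.2-fold, and the prolactin receptor Prlr rose 16.3-fold from 3.998 to 65.1 CPM. That axis had 6 over 2-fold higher and 6 over 2-fold lower of 22. TGF-beta and BMP signalling genes rose in 12 of 22 over 2-fold and fell in 3, with a median of 1.15. By role, the receptor genes Bmpr1a and Tgfbr2 rose from 89.2 to 299 and from 55.9 to 320.0 CPM, the target Id2 rose 8.07-fold, the inhibitory Smad7 rose from 11.6 to 45.5 CPM, and the activin subunit genes diverged, Inhba and Inhbe falling 7.32-fold and 7.32-fold and Inhbb rising 6.18-fold.

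In the Notch pathway the receptor Notch1 and the ligand Jag2 fell 3.18-fold and 4.32-fold. The ligand Dll1 and the target Hey1 rose 10.5-fold and 8.35-fold, and 5 of 13 were over 2-fold higher and 2 lower. Glucocorticoid response genes fell over 2-fold in 6 and rose over 2-fold in 1 of 14, that 1 being Nr3c1 itself. With no fold limit, 12 were called lower and 2 higher. Angptl4, an inhibitor of lipoprotein lipase, was 7.19-fold lower and Fkbp5 3.096-fold lower. Sphingolipid genes rose over 2-fold in 8 and fell over 2-fold in 2 of 22. Sgms1, a sphingomyelin synthase, rose 7.28-fold from 28.7 to 209 CPM and Sptlc2, of the first step of ceramide synthesis, 3.34-fold, while the sphingomyelinase Smpd3 and the kinase Sphk1 fell 5.39-fold and 4.84-fold. Fat cell genes had 2 over 2-fold higher and 2 lower of 8 tested of 16. Adipoq and Cfd were at 0 in all 6 libraries, and Pparg rose from 4.07 to 5.695 CPM.

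Markers of the labelled cell type were present in both groups and lower in OE. The 12 hepatocyte markers summed to 24160 to 24785 CPM in GFP and 11301 to 11818 CPM in OE, 6 falling over 2-fold and 1, Cps1, rising (3 and 1 on the log2(TPM + 1) scale). The 15 macrophage markers summed to 126 to 139 CPM in GFP and 107 to 119.5 CPM in OE, nearly all of it Cd68 at 131 CPM in GFP and 109.9 CPM in OE, and 2 were tested. The 14 endothelial markers summed to 75.5 to 81.1 CPM in GFP and 56.4 to 60.01 CPM in OE with none over 2-fold higher and 2 lower (none of 9 on the log2(TPM + 1) scale), among them Stab1 from 9.89 to 3.59 CPM. The 14 stellate cell markers summed to 13.4 to 15.97 CPM in GFP and 42.4 to 43.1 CPM in OE, most of the latter from Reln. Reln rose from 6.096 to 29.5 CPM and Dcn from 1.47 to 7.14 CPM, beside Col1a1 under 1 CPM. Of 6 tested, 3 rose and 1 fell over 2-fold, the lowest log2 fold change being -1.67. Cholangiocyte markers summed to 90.3 to 95.8 CPM in GFP, most of it Spp1, and 39.99 to 45.9 CPM in OE, with Sctr at 0. Of 8 tested, 2 rose and 3 fell over 2-fold, with a median log2 fold change of 0.12. Lymphocyte markers summed to 1.08 to 1.32 CPM in GFP and 2.72 to 3.67 CPM in OE, with 8 of 14 at 0, among them Cd3e, Cd8a and Ms4a1, and erythroid markers to 3.196 to 4.06 CPM in GFP and 6.604 to 7.71 CPM in OE, with the globin genes Hbb-bs and Hbb-bt at 0. The part of these cells in the results above was not tested.

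The change with added Cebpa was set beside the change with its deletion for single genes. KO and WT share no library with GFP and OE, but they are another experiment. Their spread between libraries was wider, a biological coefficient of variation of 20.4% against 4.04%. The control groups also differed in level, given side by side with no test. Scaled over all 12 libraries, hepatocyte markers summed to 15289 to 15696 CPM in GFP and 181210 to 186050 CPM in WT. The DNA replication and mitosis list summed to 1693 to 1734 CPM in GFP and 149 to 157 CPM in WT. In KO against WT 82 genes were higher (0.692% of 11846 tested) and 121 lower (1.02%), 203 in all, a count that ran from 42 without WT replicate 1 to 396 without KO replicate 3. Of the 188 of these that were tested in OE against GFP, 168 were called there too, where 86.6% of all genes were called. By direction, 97 moved oppositely and 71 in the same direction. Of those lower in KO, 54 were higher in OE and 47 lower, and of those higher in KO, 43 were lower in OE and 24 higher.

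Spp1 was higher in KO and lower in OE. It was at 8.003 ± 3.47 CPM (SD, n = 3) in WT and 379 ± 61.97 CPM in KO (log2 fold change 5.56 ± 0.37, adjusted p = 0.00134) and fell in OE as given above. The difference of the 2 effects was -8.31 ± 0.36 on the log2 scale (adjusted p = 1.37e-08, edgeR fit of all 12 libraries). Reck, an inhibitor of matrix metalloproteinases, moved the other way, from 0.7903 ± 0.0728 CPM in WT to 0.0469 ± 0.00529 CPM in KO, and from 2.28 ± 0.108 CPM in GFP to 33.8 ± 1.36 CPM in OE, with a difference of 7.90 ± 0.27 (adjusted p = 3.37e-09). Col4a1 was higher in KO (log2 fold change 2.41 ± 0.41) and lower in OE (-2.53 ± 0.043), and so was Golm1, a Golgi membrane protein raised in liver disease, at 2.48 ± 0.41 and -2.11 ± 0.038. Srgap3 and Lhpp were lower in KO and higher in OE, and Ifi27l2b and Mtmr11 were higher in KO and lower in OE. Some genes moved the same way in both. Cyp3a11 was lower in KO (-1.68 ± 0.25) and in OE (-3.13 ± 0.055), and Slc44a3, a choline transporter-like protein, was lower in both at -2.04 ± 0.27 and -1.87 ± 0.069, with a difference of 0.20 ± 0.22 (adjusted p = 0.525). Reln was higher in both, at 1.65 ± 0.24 and 2.28 ± 0.11. Spp1, Reck and Slc44a3 met a rule on the direction of their calls in both experiments, so the tests of their difference add no support to that direction. The fit of all 12 libraries uses 1 dispersion per gene for both experiments and may understate the spread of KO and WT.

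**Figure D5:**
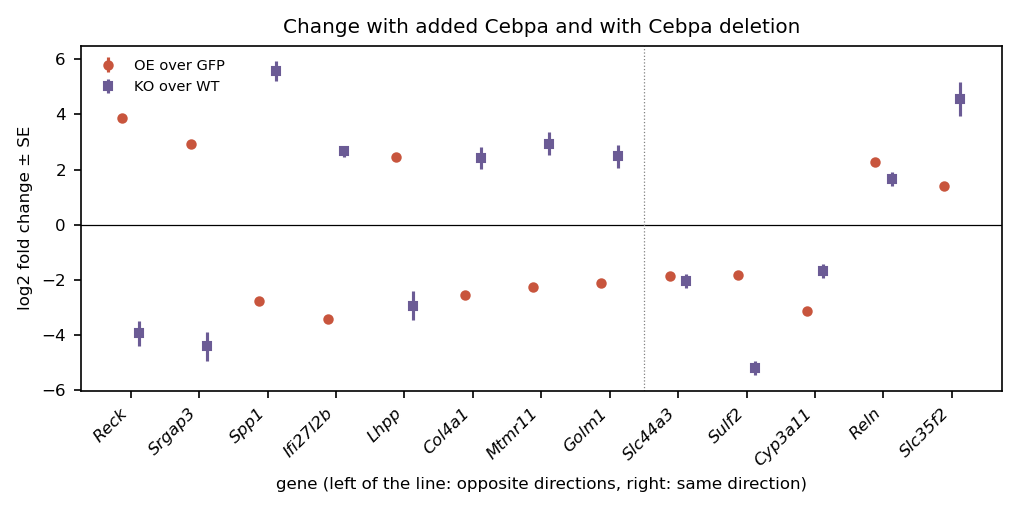
Log2 fold change with its SE (y axis) in OE over GFP (circles) and KO over WT (squares) for 8 genes whose calls oppose each other and 5 whose calls share a direction (x axis). Spp1 lies at -2.78 in OE and 5.56 in KO, Reck at 3.88 and -3.93, and Slc44a3 below zero in both.

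The estimated mix of transcript isoforms also changed. RSEM gives each gene a length weighted by the abundance of its transcripts, so a gene whose length changes between groups has a changed isoform mix. Of 9797 genes tested with limma, 285 had a length over 25% greater in GFP than in OE, so were shorter in OE (2.91%), and 30 were longer in OE by the same limit (0.306%). Susd1 was at 2366, 2236 and 2318 bases in GFP and 882, 852 and 867 bases in OE, a log2 ratio of -1.41 ± 0.026 (adjusted p = 2.86e-04). The Argonaute gene Ago2 was at 12748, 13800 and 12805 bases in GFP and 6020.5, 5972 and 5785 bases in OE. In both of these genes all OE libraries had shorter estimates than all GFP libraries. The largest shortening was that of Thap2, at 4681, 4278 and 4969.8 bases in GFP and 1257, 1474 and 1241 bases in OE (log2 ratio -1.81 ± 0.092, adjusted p = 0.00139). Igf2bp1, an RNA-binding protein of fetal tissues, was the gene that lengthened most, at 2357, 1831 and 2076 bases in GFP and 4429.7, 4042 and 4991 bases in OE. Which exons or ends differ cannot be read from gene-level tables.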

How the data were processed

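Poly(A) RNA of 12 libraries was sequenced from stranded libraries, and the setting used for strand in counting is not given in the sources used here. Per the labels and the study's methods the authors trimmed reads (Trimmomatic 0.36), aligned them to mm10 (STAR 2.5.1, Picard 1.84 for metrics) and quantified genes with RSEM 1.2.22. The deposited files hold expected counts, TPM and an isoform-weighted length in bases for 55450 genes per library, as the authors made them. RSEM divides reads among similar copies by estimation.

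Expected counts were rounded and fitted with edgeR 4.0.16 (filterByExpr, minimum count 10 and total 15, TMM scaling, quasi-likelihood F test, Benjamini-Hochberg adjustment, threshold 0.05) on the 3 GFP and 3 OE libraries without covariates, and likewise on WT and KO. One fit of all 12 libraries tested the difference of both effects. Log2 lengths of genes with 50 or more counts in all 6 libraries were tested with limma 3.58.1 at a ratio over 1.25. Pairs of libraries within a group differed beyond sampling noise. Intervals and floors cover counting error only. The fits were tested on simulated data. Alternatives were DESeq2 1.42.0, other scalings, filters and TPM pseudocounts (1 and 0.1), the replicate block and each library left out. The fit without the gene length trend was an addition made once results were known.

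The comparison and all gene lists were chosen with earlier results of these data known. Named genes were Cebpa and the study's genes; the 12 largest rises and falls and the 10 largest gains and losses in CPM among called genes without overlap at a mean of 10 CPM or more, leaving out provisional and mitochondrial symbols; in each list the 4 called members with the largest change at 5 CPM or more in a group, and the most abundant member; the 8 most abundant genes at 0 in each group; 8 genes called oppositely and 5 called alike in both experiments; and the 8 largest length changes. Not every such gene is printed. Acaca, Acot1, Acot4, Acot6, Ccn1, Cebpb, Cebpd, Cebpe, Cebpg, Col1a1, Cpt1a, Cst3, Cstb, Cyp2e1, Elovl3, Elovl4, Fga, Fgg, Foxa1, Fstl1, G6pc, Gfi1, Hamp, Igf1, Igf2, Krt10, Krt18, Krt5, Lce3d, Lce3e, Ltf, Mcm3, Mcm4, Mki67, Oat, Padi4, Pax3, Pck1, Plin2, Runx2, S100a6, Serpinb2, Shox2, Slc40a1, Smad7, Sprr1a, Sprr1b, Tgfb1, Tgfbr2, Tgm3, Trem1, Vcan, Yap1 and the leukocyte and keratinocyte genes given by counts were named after their values were seen. Some genes are not reported here.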

Additional observations from a re-analysis of the deposited data

How the results depend on the processing

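Of 4379 comparisons of 245 named genes with 18 alternatives, 4320 kept direction and side of the threshold, 39 lost the call, 10 gained it and 10 changed sign. The changed signs were Abcc3 (log2 fold change 0.041 with TPM + 0.1 and 0.040 with TPM + 1), Klf6 (0.035 with library totals, 0.22 with either TPM pseudocount), Notch2 (-0.24 with the gene length trend removed), Cd68 (0.071 and 0.070 with TPM) and Egfl7 (0.078 and 0.076 with TPM). Against a 1.5-fold margin (glmTreat) 4331 genes were higher and 3791 lower, 8122 in all. Lower genes numbered 4083 with TPM + 0.1 and 4093 with TPM + 1, of which 1598 and 1388 were over 2-fold lower. A mean of 5 CPM left 2092 genes over 2-fold higher and 1728 lower, fewer genes being tested. Leaving out each library gave 6532 to 6578 higher and 6270 to 6357 lower. Of 102 list counts, 27 moved by over 1.5 times with either TPM pseudocount, 25 with the stricter filter, 9 with library totals and 0 with DESeq2. The cause of these moves was not tested.

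Same-numbered GFP and OE libraries had correlated deviations of 0.105, 0.0189 and 0.0649 over 6398 genes, so the numbers were not taken to pair them, though every library except OE replicate 2 correlated best with its own number. With the replicate block 6496 genes were higher and 6320 lower. For length the block gave 16 longer, 185 shorter and 201 in all, and leaving out each library gave 18 to 28 longer, 230 to 261 shorter and 252 to 289 in all, 18 without OE replicate 2.

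KO against WT was less stable. DESeq2 called 276 higher and 347 lower, 623 in all, and the replicate block 31 and 56, 87 in all. Leaving out each library gave 15 to 207 higher, 27 to 189 lower and 42 to 396 in all. Without KO replicate 3 the total was 396, and it was 118 and 91 without KO replicates 1 and 2, and 42, 52 and 60 without WT replicates 1, 2 and 3.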

Other observations

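Developmental transcription factor genes were often higher in OE, a pattern chosen after the values were seen. Of 181 homeobox genes, which pattern tissues in the embryo, 90 were tested, 69 rose and 3 fell over 2-fold. Pax3, which acts in neural crest and muscle precursors, went from 0 to 22.8, 26.8 and 25.6 CPM, at least 508-fold higher, and the limb factor Shox2 rose 409.7-fold from 0.0836 to 36.03 CPM. Low genes passed the filter only through the group in which they were high, so the count over tested members supports no direction. Among the 39 with a mean of 5 CPM or more, 23 rose and 1 fell over 2-fold, with a median log2 fold change of 1.49, beside 1978 and 1868 of 11031 genes at that level and a median of -0.053. All 8 tested T-box genes rose over 2-fold, with the same limit.

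Ribosomal protein and respiratory chain genes were mostly lower in OE, while proteasome genes were divided. Of 80 cytosolic ribosomal protein genes 77 fell and 2 rose with TMM, none over 2-fold, with a median of -0.57. Complex I of the respiratory chain fell in 33 of 37, 8 of them over 2-fold, with a median of -0.67, and the 13 mitochondrially encoded proteins fell in 12, 5 of them over 2-fold, with a median of -0.86. These families were not recomputed under other scalings, which moved the median of all genes by up to 0.30, and the shortest class of genes had a median of -0.42. Mitochondrial ribosomal proteins fell in 46 and rose in 20 of 78, and proteasome subunits had 17 higher and 15 lower of 38.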
